A study of Rattus norvegicus with 12 samples.

Results

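The collagen genes were examined in liver RNA of male obese Zucker rats of the line Crl:ZUC-Leprfa, homozygous (fa/fa) for the defective leptin receptor allele, with 1 Affymetrix Rat Gene 2.0 ST array for each rat. The members are the genes whose symbol in the platform annotation has the form Col, a number, a and a number, taken from rows that name exactly 1 gene, and they came to 36 of the 18166 genes tested. They were grouped by the architecture of the protein into 11 fibrillar collagens, 7 basement membrane collagens (type IV chains and the multiplexins Col15a1 and Col18a1) and 18 others. The 6 control rats received a diet without supplement, matched in gross energy and crude nutrients, and the 6 PSC rats a diet with 5% PSC, the labels' name for a supplement that the series title describes as a biotechnologically produced oyster mushroom. All rats, controls included, carried the same genotype, were 5 to 6 weeks old at the start, were fed for 4 weeks and were killed on day 29. They lived in cages of 2. Which rats shared a cage was not known here, and cage mates would not be fully independent.

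Signals are log2 values per transcript cluster (the set of probes for 1 gene), as the authors deposited them after RMA normalization. A difference is the PSC mean minus the control mean on the log2 scale, and a gene is said to have fallen or risen only where limma's test over all genes gave an adjusted p below 0.05. The medians of the arrays lay between 4.71 and 4.85, and the number of arrays limits the precision. The files hold no detection calls, and clusters differ in how brightly their probes respond, so no order of abundance between genes is read from the signals. Of the hepatocyte markers the brightest, Alb (serum albumin), had a mean signal of 13.16, and the 6 measured markers of that list lay at 11.06 or above.

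Collagens are proteins of the extracellular matrix whose chains wind around each other in a triple helix. Fibrillar collagens pack into the tensile fibrils of connective tissue, type IV chains form the network of basement membranes, and the fibril-associated collagens with interrupted helices (FACIT) sit on the surface of fibrils. In liver the collagens of fibrils are made mainly by hepatic stellate cells and portal fibroblasts, and their accumulation is the hallmark of fibrosis.

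In PSC-fed rats 3 collagen genes fell and 1 rose. The fibrillar chains Col1a2 and Col3a1 fell to 0.67 and 0.81 of the control level, the FACIT gene Col12a1 fell to 0.66 of it, and the type IV chain Col4a4 rose 1.21-fold (n = 6 per diet). The 3 falls are 8.33% of the members beside 1.89% of all genes tested, and the 1 rise is 2.78% beside 0.716%. Col12a1 fell and Col4a4 rose without overlap between the diets. Over all genes tested, 1.48% had every PSC array below every control and 0.71% had every PSC array above. The other 32 members did not pass. Most of those had small positive differences. Over all 36 members 24 differences were positive and 12 negative, with a median of 0.09 beside 0.013 for all genes. The 12 are 33.3% of the members, beside 46.1% of all genes with a negative difference. The sign went with the signal, as described below.

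**Figure D1:**
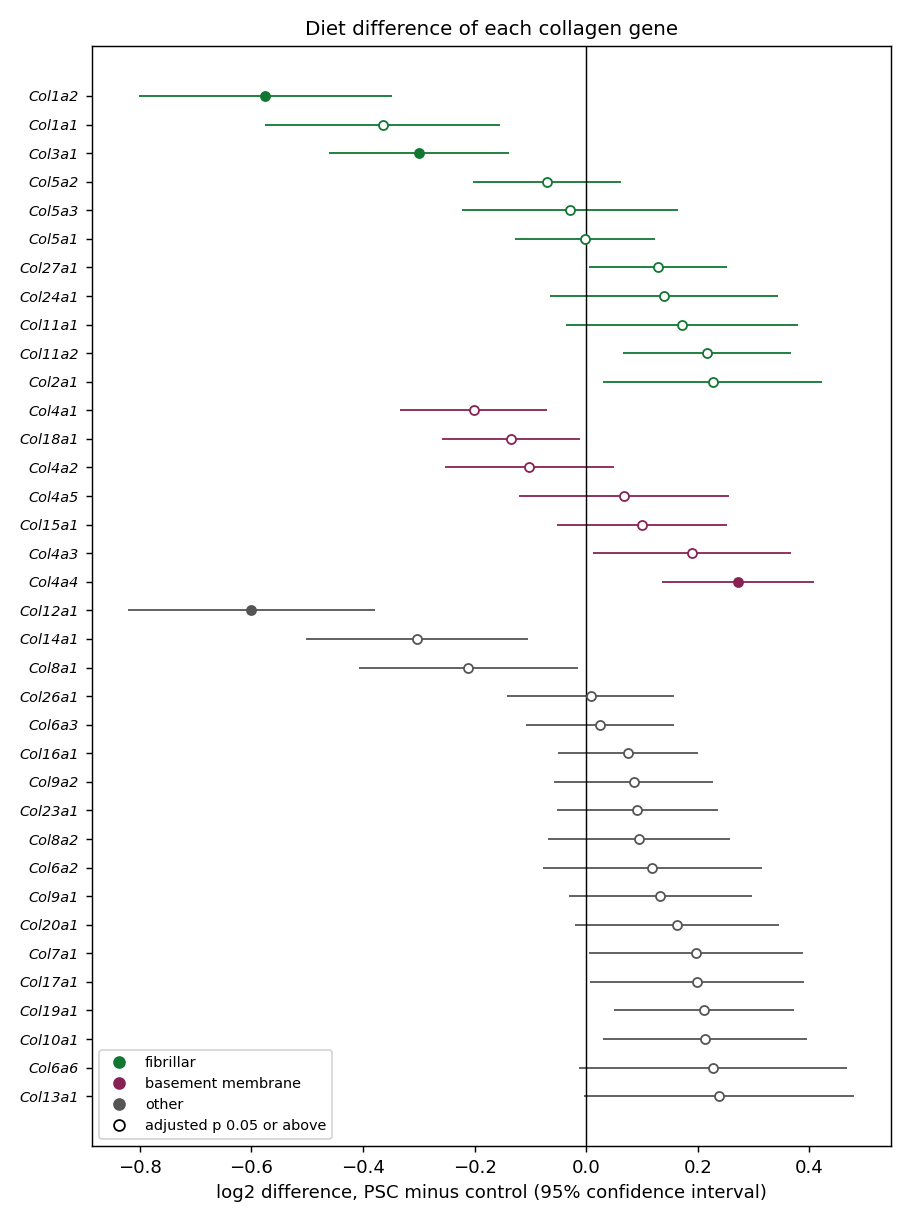
Log2 difference (PSC minus control) of each of the 36 collagen genes with its 95% confidence interval from limma, by class, n = 6 rats per diet. Filled points passed an adjusted p of 0.05: Col1a2, Col3a1 and Col12a1 lie below 0 and Col4a4 above.

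The collagens of types I and III had the lowest differences of the fibrillar class. Type I is a trimer of Col1a1 and Col1a2 chains and type III is built from Col3a1 alone. Together they form most of the fibrils in liver. Col1a2 ran from 6.68 through a median of 6.84 to 7.06 in controls and from 6.04 through 6.25 to 6.72 in PSC-fed rats. The PSC arrays lay below every control except PSC replicate 4, at 6.72, which lay among the lowest controls. The difference was -0.57 (SE 0.11, 95% confidence interval -0.80 to -0.35, limma adjusted p = 0.0144), and it passed in all 12 fits that left out 1 array. Without PSC replicates 2 and 5 together it did not (adjusted p = 0.052).

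The window around the annotated start of Col1a2 is printed because this gene had the largest fall of the class. It runs from 250 bases before to 50 after the start in RefSeq (GRCr8), 5′ to 3′, and capitals mark a CCAAT box (letters CCAAT, here on the opposite strand as ATTGG) and a TATA box (letters TATAAA).
Col1a2 promoter, GRCr8 chr4:33518307-33518606, plus strand: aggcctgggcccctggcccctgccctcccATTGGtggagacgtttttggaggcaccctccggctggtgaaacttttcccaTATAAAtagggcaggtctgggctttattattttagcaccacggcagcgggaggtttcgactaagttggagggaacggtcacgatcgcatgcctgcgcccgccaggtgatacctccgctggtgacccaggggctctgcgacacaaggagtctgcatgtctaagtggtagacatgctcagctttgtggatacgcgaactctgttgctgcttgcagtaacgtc
Both motifs lie before the annotated start, at bases -221 and -170. Searched on both strands, CCAAT is held by 37.5% of all 33469 promoter windows of this length in the RefSeq table and TATAAA by 14.2%, so these matches describe the window and no more. The windows of Col1a1, Col3a1 and Col12a1 were not used here.

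Col3a1 ran from 8.95 through 9.06 to 9.13 in controls and from 8.60 through 8.71 to 9.08 in PSC-fed rats. Again 5 PSC arrays lay below every control, and PSC replicate 4 stood among the highest controls. The fall of 0.30 on the log2 scale (SE 0.08, limma adjusted p = 0.0484) passed in only 2 of the 12 fits without 1 array, those without control replicate 2 and without PSC replicate 4, and the adjusted p reached 0.102 in the others. With cyclic loess normalization it was 0.0634. Col1a1, the other type I chain, had 5.97 to 6.57 in controls (median 6.14) and 5.68 to 5.99 in PSC-fed rats (median 5.79), with an overlap of a few hundredths. Its difference of -0.36 (SE 0.10) did not pass (adjusted p = 0.0611), and passed without control replicate 2 or without PSC replicate 4, with adjusted p from 0.0447 over the 12 fits. It also passed with genes below a mean signal of 5 left out (adjusted p = 0.0357) and with a variance trend (0.0472).

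The other 8 fibrillar genes had a median difference of 0.13, and 0 of them passed. Of the type V chains, which nucleate type I fibrils and set their width, Col5a1 had -0.0017 (95% interval -0.13 to 0.12), Col5a2 -0.07 (-0.20 to 0.06) and Col5a3 -0.03 (-0.22 to 0.17). These intervals leave out a signal difference as large as that of Col1a2. Col5a2 and Col5a3 were dim, with mean signals of 5.10 and 4.78, and RMA compresses changes of dim genes. Whether their transcripts changed by more than the signals show was not tested. Col5a1 is measured by a second cluster in the table, dimmer in signal, with a difference of -0.08. Col2a1, Col11a1 and Col11a2, which make up cartilage fibrils, had 0.23, 0.17 and 0.22, and the less studied fibrillar genes Col24a1 and Col27a1 had 0.14 and 0.13. Col11a2 came closest of these to the threshold (adjusted p = 0.111). For the class as a whole 2 of 11 fell and the median difference was -0.0017.

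Of the 7 FACIT genes measured, 1 fell. Col12a1, whose protein binds type I fibrils in tissues under load, ran from 5.54 through 5.82 to 6.09 in controls and from 5.01 through 5.19 to 5.47 in PSC-fed rats. Every PSC array, PSC replicate 4 included, lay below every control. The fall was 0.60 on the log2 scale (SE 0.10, 95% confidence interval -0.82 to -0.38, limma adjusted p = 0.0109), the largest of any member, and passed in all 12 fits without 1 array. Col14a1, the closest relative of Col12a1 in the family, ran from 7.20 through 7.33 to 7.60 and from 6.91 through 7.03 to 7.42. Here 5 PSC arrays lay below every control and PSC replicate 4 lay inside their range. Its difference of -0.30 (SE 0.09, adjusted p = 0.0949) did not pass, and passed without PSC replicate 4 (adjusted p = 0.0258). The other 5 measured FACIT genes, Col9a1, Col9a2, Col16a1, Col19a1 and Col20a1, had differences between 0.08 and 0.21, none past the threshold.

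**Figure D2:**
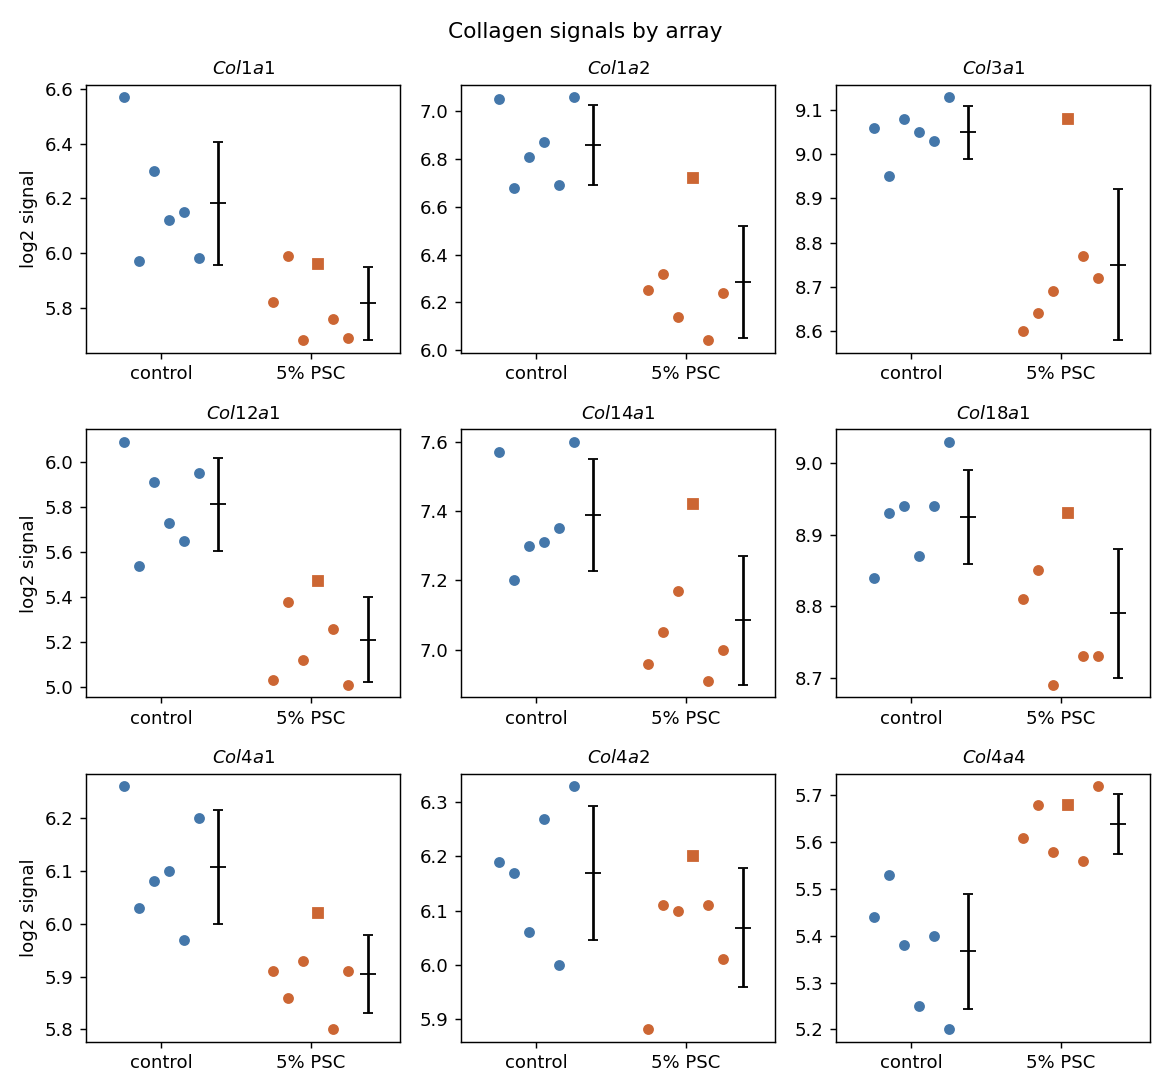
Log2 signal of 9 collagen genes in each of the 12 arrays, with controls in blue and PSC-fed rats in orange, and the mean ± SD (n = 6) in black beside each group. The square is PSC replicate 4, which lies inside the control range for Col1a2, Col3a1, Col14a1, Col18a1, Col4a1 and Col4a2 and outside it for Col12a1, Col1a1 and Col4a4.

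PSC replicate 4 lay inside the control range, with the other 5 PSC arrays below every control, in Col1a2, Col3a1, Col4a1 and Col14a1. Of the 12 members with a negative difference, it was the highest PSC array in 9 and lay inside the control range in 10. In the rest of those 10, such as Col4a2, other PSC arrays lay inside the control range too. Without PSC replicate 4 the members lower in PSC numbered 5, with Col1a1 and Col14a1 added, while the count over all genes went from 343 to 543. This array was singled out after its values in these genes were seen.

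Within the basement membrane class 1 type IV chain, Col4a4, rose and the other 4 did not pass. The major chains Col4a1 and Col4a2 form the heterotrimer found in nearly all basement membranes, while Col4a3, Col4a4 and Col4a5 form the trimer known from kidney glomerulus and lung. Col4a4 ran from 5.20 through 5.39 to 5.53 in controls and from 5.56 through 5.65 to 5.72 in PSC-fed rats. The groups did not overlap, though they were separated by only a few hundredths. The rise was 0.27 (SE 0.06, 95% confidence interval 0.14 to 0.41, limma adjusted p = 0.0378), and it passed in 2 of the 12 fits without 1 array, those without control replicate 2 and without PSC replicate 4, with adjusted p up to 0.0868 in the others. Col4a3 had 5.15 to 5.43 in controls (median 5.38) and 5.31 to 5.84 in PSC-fed rats (median 5.54). Its difference of 0.19 (SE 0.08, adjusted p = 0.231) did not pass, and the groups overlapped. Col4a5 had 0.07 (95% interval -0.12 to 0.26).

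Col4a1 ran from 5.97 through 6.09 to 6.26 in controls and from 5.80 through 5.91 to 6.02 in PSC-fed rats, with 5 PSC arrays below every control and PSC replicate 4, at 6.02, just inside. The difference of -0.20 (SE 0.06, adjusted p = 0.0944) did not pass in the main test or in any fit without 1 array, but passed when genes with a mean signal below 5 were left out (adjusted p = 0.0475). Col4a2 overlapped widely, with 6.00 to 6.33 (median 6.18) and 5.88 to 6.20 (median 6.11), and a difference of -0.10 (95% interval -0.25 to 0.05). Col18a1, which carries endostatin at its end and is made by hepatocytes as well as vessels, had 8.84 to 9.03 (median 8.94) and 8.69 to 8.93 (median 8.77). Its difference was -0.14 (SE 0.06, adjusted p = 0.221), with the groups overlapping. Col15a1, the other multiplexin, had 0.10. In the class 0 of 7 fell and 1 rose, with a median difference of 0.07. By unadjusted p below 0.05 in limma's test the class had 2 lower and 2 higher, where all genes tested had 10.1% lower and 9.02% higher.

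Type IV genes lie head to head in pairs, and the windows around their starts are printed because the members of each pair had differences of the same sign. The annotated starts of Col4a1 and Col4a2 are 77 bases apart and those of Col4a3 and Col4a4 413 bases apart. Each sequence is read 5′ to 3′ on its own gene's strand, from RefSeq (GRCr8), so that the windows of a pair overlap in 176 and 88 bases as reverse complements. Capitals mark CCAAT and GGGCGG (the GC box) on either strand, where the opposite strand shows as ATTGG and CCGCCC.
Col4a1 promoter, GRCr8 chr16:84885347-84885646, plus strand: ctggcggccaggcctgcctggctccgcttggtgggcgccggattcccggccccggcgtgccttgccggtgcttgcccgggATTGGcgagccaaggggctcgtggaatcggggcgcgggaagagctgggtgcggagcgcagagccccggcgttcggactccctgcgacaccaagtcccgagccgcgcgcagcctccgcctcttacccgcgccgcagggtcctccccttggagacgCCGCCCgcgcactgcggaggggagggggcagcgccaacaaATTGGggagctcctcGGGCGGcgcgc
Col4a2 promoter, GRCr8 chr16:84885471-84885770, minus strand: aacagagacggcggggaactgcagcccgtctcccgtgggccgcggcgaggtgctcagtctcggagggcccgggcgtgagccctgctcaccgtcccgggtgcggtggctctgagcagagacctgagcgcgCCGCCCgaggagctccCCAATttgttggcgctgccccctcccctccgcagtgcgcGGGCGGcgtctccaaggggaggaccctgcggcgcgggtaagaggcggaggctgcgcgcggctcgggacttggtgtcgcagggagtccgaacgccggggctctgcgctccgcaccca
Col4a3 promoter, GRCr8 chr9:91323740-91324039, plus strand: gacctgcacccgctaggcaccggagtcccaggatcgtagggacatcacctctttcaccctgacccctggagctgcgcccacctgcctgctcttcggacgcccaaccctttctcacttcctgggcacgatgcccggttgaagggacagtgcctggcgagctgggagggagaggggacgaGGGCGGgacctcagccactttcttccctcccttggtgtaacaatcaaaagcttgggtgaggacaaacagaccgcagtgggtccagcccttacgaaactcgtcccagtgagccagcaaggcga
Col4a4 promoter, GRCr8 chr9:91323528-91323827, minus strand: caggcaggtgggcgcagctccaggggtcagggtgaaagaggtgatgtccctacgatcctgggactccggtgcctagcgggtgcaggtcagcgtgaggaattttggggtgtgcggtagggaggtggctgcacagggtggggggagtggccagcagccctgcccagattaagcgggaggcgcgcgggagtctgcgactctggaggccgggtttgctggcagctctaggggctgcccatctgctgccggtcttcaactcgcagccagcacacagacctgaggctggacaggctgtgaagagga
The Col4a1 window held 2 CCAAT and 2 GGGCGG matches, the Col4a2 window 1 and 2, some of them the same bases read on the other strand. The Col4a3 window held 1 GGGCGG match, and none of the 3 motifs searched was in the Col4a4 window. GGGCGG is in 33.1% of all windows of this length and in 18 of the 30 that belong to collagen members. For CCAAT the members' count was 8 of 30 and for TATAAA 4 of 30.

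In the remaining subclasses 0 genes passed. Col6a2, Col6a3 and Col6a6 encode chains of the beaded filaments of type VI, which link cells to the matrix, and had 0.12, 0.03 and 0.23. Of the short-chain network genes, Col8a1, made by vessel walls, had -0.21 (SE 0.09, adjusted p = 0.227), and Col8a2 and the growth plate gene Col10a1 had 0.10 and 0.21. The transmembrane collagens Col13a1, Col17a1 and Col23a1 had 0.24, 0.20 and 0.09, the anchoring fibril gene Col7a1 0.20 and Col26a1 0.0083. Over all 18 genes outside the fibrillar and basement membrane classes 1 fell, 0 rose and the median was 0.11. By unadjusted p below 0.05 in limma's test they had 3 lower (Col8a1, Col12a1 and Col14a1) and 4 higher (Col7a1, Col10a1, Col17a1 and Col19a1). All genes tested had 10.1% lower and 9.02% higher. The 4 higher members were dim, with mean signals from 3.59 to 4.81.

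The sign of a member's difference went with its signal. Of the 25 members with a mean log2 signal below 6, 21 had a positive difference and the median was 0.14, while of the 11 at 6 or above 8 were negative and the median was -0.14. Col1a1 lies just below that limit, with a mean of 5.999. Genes in general leaned the same way. Of the 11078 genes below 6, 35.1% were negative, beside 4 of 25 collagens, and the median was 0.05. Of the 7088 genes at 6 or above, 63.5% were negative, so that 8 of 11 is near the share of all genes, and the median was -0.04. With cyclic loess normalization, which brings these medians to 0.0056 and 0.00022, 20 of the 25 dimmer collagens were still positive (median 0.10) and 7 of the 11 brighter ones negative (median -0.11). Arrays contributed unequally to the dimmer members: PSC replicate 2 was the highest of the 12 arrays in 9 of the 25 and PSC replicate 5 in 6. These arrays also had the highest medians over all clusters, 4.85 and 4.82, and the part of this in the positive differences was not tested. Without them 20 of the 25 were positive, with a median of 0.07 beside 0.02 for all genes in that signal range.

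**Figure D3:**
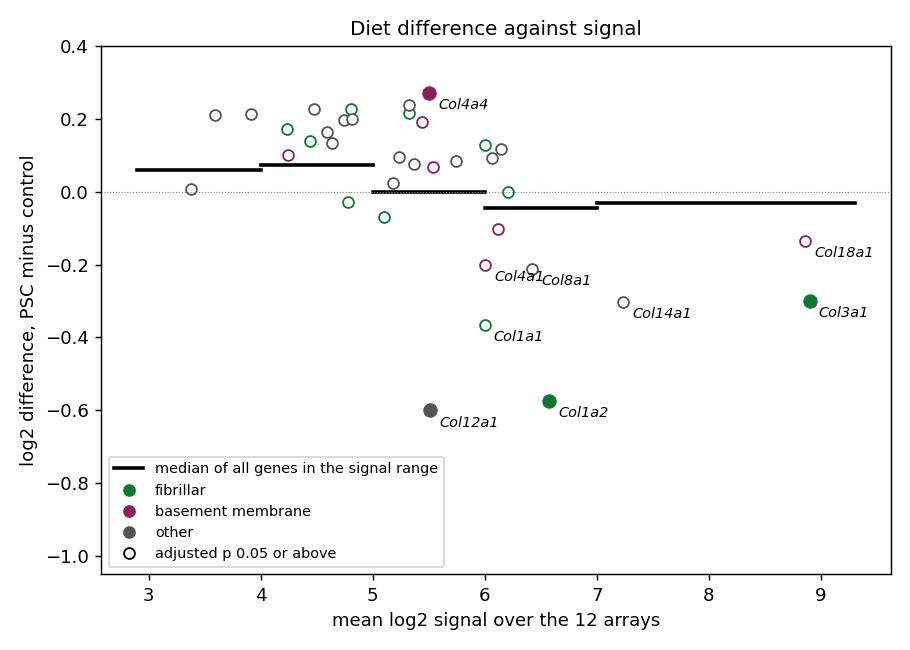
Log2 difference (PSC minus control) of each collagen gene against its mean log2 signal over the 12 arrays, coloured by class, with the median difference of all genes in 5 signal ranges as black lines. Filled points passed an adjusted p of 0.05. Below a signal of 6, 21 of 25 members lie above 0, and Col12a1, Col1a1, Col5a2 and Col5a3 lie below.

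Chains of the same or partner molecules were compared rat by rat within each diet, so that the diet itself could not make them correlate. Over 5 pairs in 2 diets, 10 relations in all, none passed an exact permutation test over the 720 pairings after Benjamini-Hochberg adjustment (n = 6 each, smallest possible p = 0.00278). Col3a1 and Col1a2 had Pearson r = 0.757 in controls (exact p = 0.0736, adjusted 0.278, Spearman rho 0.829 with exact p = 0.0583, adjusted 0.343), and r = 0.416 without the 2 rats farthest from the median. Among PSC-fed rats they had r = 0.743 (exact p = 0.156) with a Spearman rho of -0.03 (exact p = 1). Leaving out the 2 rats farthest from the median, 1 of them PSC replicate 4, turned that r to -0.841, so the positive r among PSC-fed rats rested on those samples. Col1a1 and Col1a2 had r = 0.691 in PSC-fed rats (rho 0.771) and 0.107 without PSC replicates 2 and 4, and r = 0.373 in controls (rho 0.257), which turned to -0.69 without 2 rats. Col4a1 and Col4a2 had r = 0.654 in controls (rho 0.771, and r 0.703 without the 2 farthest) and 0.209 in PSC-fed rats (rho 0.088, and r -0.288 without 2). The type V pair Col5a1 and Col5a2 had 0.748 in controls (0.215 without 2 rats) and -0.132 in PSC-fed rats (-0.118), and the type VI pair Col6a2 and Col6a3 had 0.218 (-0.597) and 0.627 (0.914). Most of these r values changed in size or sign when 2 rats were left out. Leaving out the rats farthest from the median of the first gene narrows its range and leaves few points. Such a change therefore cannot tell whether 2 chains are related.

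**Figure D4:**
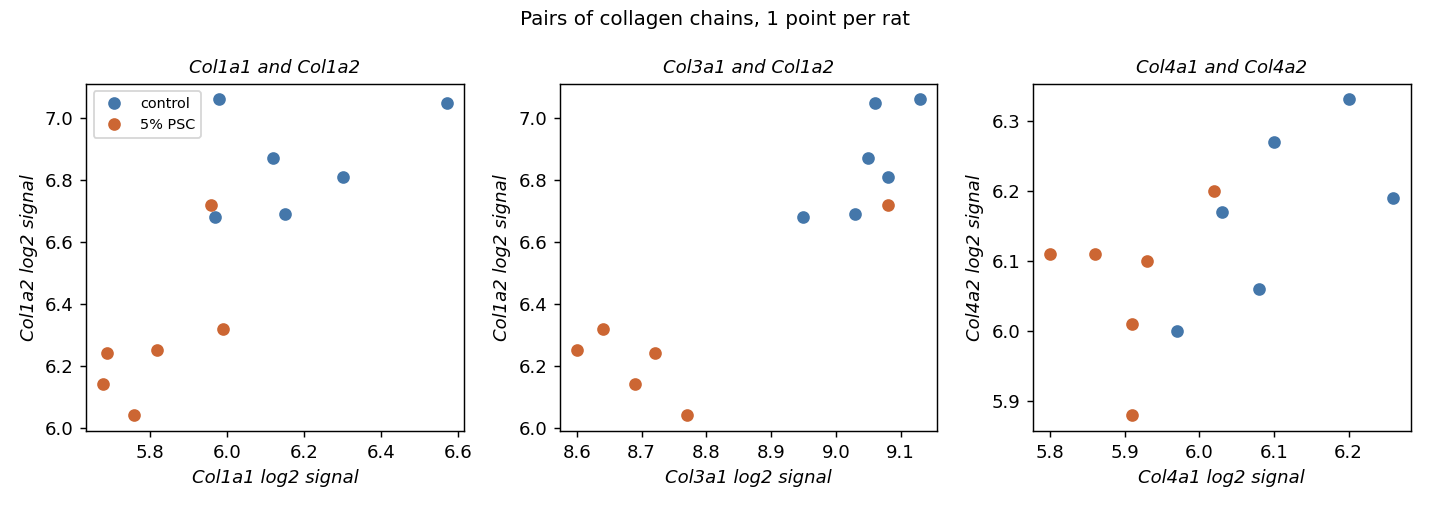
Log2 signals of 3 pairs of collagen chains, 1 point per rat, controls in blue and PSC-fed rats in orange. For Col3a1 and Col1a2 the PSC point at 9.08 and 6.72 is PSC replicate 4, which stands with the controls.

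The genes that modify, fold, cut, link, bind and degrade collagen were read from lists of 59 genes, of which 54 were measured. Over these, 6 fell and 1 rose (11.1% and 1.85%, beside 1.89% and 0.716% of all genes), with a median difference of -0.06 beside 0.013. The falls were in the steps that modify, fold and cross-link the chains and in 1 gene of breakdown, and the rise in propeptide removal.

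Cross-linking enzymes had the largest difference of the pathway. Lox, lysyl oxidase, which starts the covalent links between collagen molecules, ran from 5.01 through 5.56 to 5.86 in controls and from 3.95 through 4.41 to 4.97 in PSC-fed rats. The diets did not overlap, with PSC replicates 2 and 4, at 4.97 and 4.95, close to the lowest control. Lox fell by 1.02 on the log2 scale (SE 0.17, limma adjusted p = 0.0101), a 2.04-fold decrease. Its relative Loxl1 fell by 0.55 (adjusted p = 0.0138), Loxl2 had -0.33 (adjusted p = 0.0694), and 2 of 5 fell in all.

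In prolyl and lysyl modification, which stabilises the helix and prepares the cross-links, 2 of 14 fell. Plod2, the lysyl hydroxylase of the collagen telopeptides, ran from 5.13 through 5.29 to 5.65 in controls and from 4.39 through 4.66 to 5.12 in PSC-fed rats. The highest PSC array was PSC replicate 4, just below the lowest control. Plod2 fell by 0.63 on the log2 scale (limma adjusted p = 0.0139), and did not pass without PSC replicates 2 and 5 (adjusted p = 0.0616). Crtap, which encodes a subunit of the prolyl 3-hydroxylation complex, fell by 0.39 (adjusted p = 0.0266, up to 0.0642 without 1 array and lost in 6 of those 12 fits). The prolyl 4-hydroxylase gene P4ha1 had -0.28 and the alternative subunit P4ha3 0.24, neither past the threshold. In folding and secretion 1 of 7 fell: Serpinh1, the collagen chaperone HSP47, by 0.31 (adjusted p = 0.0274, up to 0.066 without 1 array and lost in 7 of those 12 fits). Sec23a, a subunit of the coat of secretory vesicles, had 0.23 (adjusted p = 0.108).

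In propeptide removal 1 of 7 rose. Bmp1, the protease that cuts the C-propeptides of fibrillar procollagens, ran from 8.29 through 8.35 to 8.43 in controls and from 8.45 through 8.67 to 8.78 in PSC-fed rats, without overlap. It rose by 0.27 (SE 0.06, limma adjusted p = 0.0413), and passed in 2 of the 12 fits without 1 array, those without PSC replicate 2 or 3. Adamts2, which cuts the N-propeptides, had -0.33 (adjusted p = 0.119), with PSC replicate 4 at 6.51 above every control and the other 5 at 5.93 or below. It passed without that array (adjusted p = 0.0047).

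Among collagen receptors 0 of 10 passed. Itgb1, the beta subunit shared by all collagen-binding integrins, had 8.86 to 9.13 in controls and 8.64 to 8.81 in PSC-fed rats, without overlap, and a difference of -0.25 (adjusted p = 0.0584). It passed with genes below a mean signal of 5 left out (0.0277), with a variance trend (0.03) and without PSC replicate 4 (0.0479). Mrc2, the receptor that takes up collagen fragments, had 0.27 (adjusted p = 0.0796). By unadjusted p below 0.05 in limma's test Itgb1 was the 1 lower and Mrc2 the 1 higher of the 10 receptor genes. That is near the shares of all genes tested, 10.1% lower and 9.02% higher. In collagen breakdown 1 of 11 fell, Mmp2, a gelatinase, by 0.65 (SE 0.11, adjusted p = 0.0095), without overlap between the diets. The inhibitor genes Timp1 and Timp2 had -0.54 and -0.33 and did not pass (adjusted p = 0.067 and 0.0923). Timp1 passed without control replicate 2 or PSC replicate 4, with the dim genes left out (0.0424) and with a variance trend (0.0493).

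**Figure D5:**
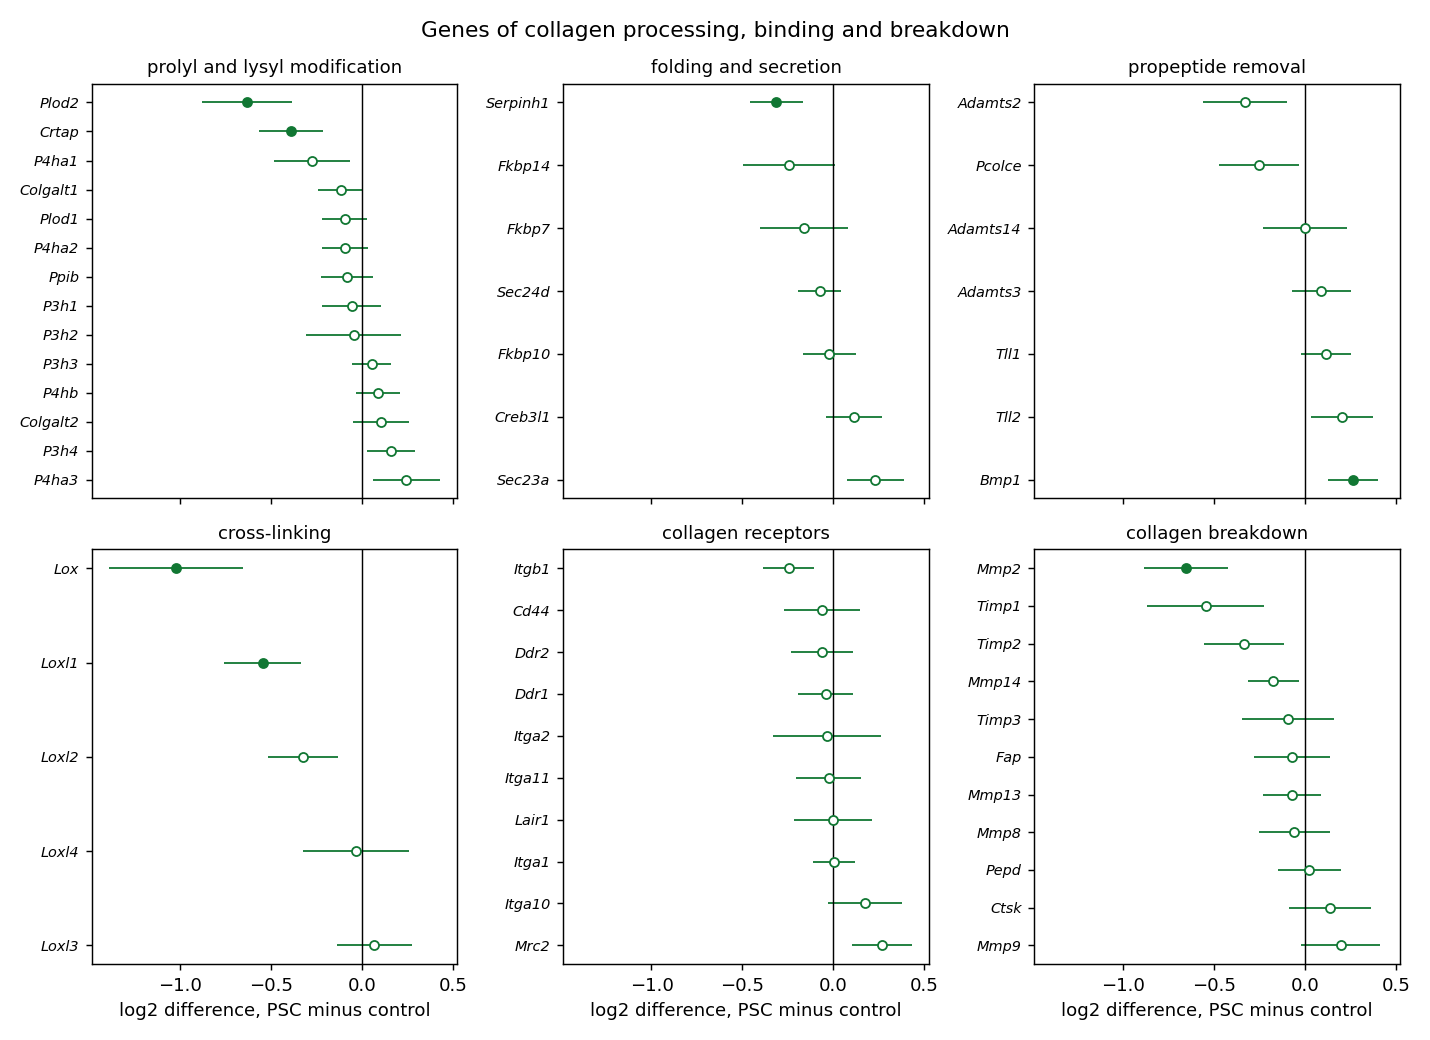
Log2 difference (PSC minus control) with 95% confidence interval for the 54 measured genes of collagen modification, folding, propeptide removal, cross-linking, binding and breakdown, n = 6 rats per diet. Filled points passed an adjusted p of 0.05: Lox, Loxl1, Plod2, Crtap, Serpinh1 and Mmp2 below 0 and Bmp1 above.

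Markers of the cells that could carry these transcripts were read from lists in the same fit. In bulk liver RNA fewer cells of a type and less RNA per cell cannot be told apart. Of 12 stellate cell markers 1 fell, Rgs5, by 0.48 (limma adjusted p = 0.0315), 8 differences were negative and the median was -0.19. Over all genes tested 1.89% fell and 0.716% rose, the background for the calls in each list here. Of all genes at a mean signal of 6 or above, where most stellate markers lie, 63.5% were negative, with a median of -0.04. The 8 of 12 is near that share. By unadjusted p below 0.05 in limma's test 5 of the 12 were lower and 0 higher. The shares of all genes tested were 10.1% lower and 9.02% higher. The mean log2 signal of the stellate list ran from 7.25 to 7.38 in controls and from 7.09 to 7.17 in 5 PSC arrays. PSC replicate 4, which had control-like Col1a2 and Col3a1, also lay inside the control range for the stellate list, at 7.29. Lying inside the control range was not particular to that list, but among the marker lists only this one had the other 5 PSC arrays below every control. PSC replicate 4 lay inside the control range for hepatocytes, sinusoidal endothelium, macrophages, mesothelium and adipocytes as well. It lay below that range for smooth muscle and bile duct epithelium and above it for portal fibroblasts. Of 4 measured smooth muscle markers 1 fell, Tagln, by 0.92 (adjusted p = 0.0183), with list means of 5.30 to 5.59 in controls and 4.88 to 5.43 in PSC-fed rats. The 9 portal fibroblast markers, 0 of them called, had 5.63 to 5.74 and 5.64 to 5.82, so the mean of this list was not lower in the PSC arrays. Except for Dpt, at 11.85, these markers had mean signals below 6, as Cd34 at 3.79 and Gli1 at 4.34. In that range only 35.1% of all genes were negative. The list therefore cannot show whether transcripts of portal fibroblasts fell. Of the other lists, bile duct epithelium had 1 fall in 6 (Spp1, also a macrophage gene) and list means of 4.50 to 4.63 against 4.35 to 4.56. Macrophages had 1 rise in 6 (Cd163) and 6.21 to 7.20 against 7.13 to 7.55. All 6 macrophage differences were positive, with a median of 0.51. By unadjusted p below 0.05 in limma's test 3 of these 6 were higher and 0 lower. No member passed in sinusoidal endothelium (4 measured, 7.41 to 7.69 against 7.64 to 7.84), mesothelium (5, 4.41 to 5.16 against 4.52 to 5.01), adipocytes (4, 4.12 to 4.30 against 4.11 to 4.45) or hepatocytes (6, 11.99 to 12.08 against 11.91 to 12.10). Whether cell numbers had a part in the collagen differences was not tested.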

How the data were processed

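The authors deposited log2 signals of 30347 transcript clusters, and per the submitters' processing notes RMA was run in Affymetrix Expression Console. RMA corrects background, quantile normalizes arrays and summarises probes, which compresses changes of dim genes. Their versions and any filters are not stated there. Values were used as deposited.

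Clusters with 1 symbol (18511; 575 had several, 11261 none) gave 18166 genes, each by its brightest cluster. Some genes were not analysed here. All 36 collagens matched RefSeq (GRCr8) by gene number, and 30 had a promoter window. Diets were compared in 1 fit over all genes (limma 3.58.1 in R 4.3.3, two-sided, Benjamini-Hochberg, threshold 0.05), checked on simulated data. Correlations used exact permutation (numpy 2.4.6), figures matplotlib 3.10.9.

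Members, classes and lists were chosen with earlier results of these data known. Named were all members, and in the pathway lists the genes past the threshold and the 2 of smallest p per group; others (Loxl2, P4ha1, P4ha3, Timp2, Alb and the marker genes) were named after their values were seen. Alternatives covered normalization, a dim filter at 5, the variance prior, array weights, a replicate block, cluster choice and left-out arrays.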

Additional observations from a re-analysis of the deposited data

Results flagged for a closer look

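Within the groups of 6 arrays, 1 array stood far from the others in 7 of 96 groups (48 genes in 2 diets), where chance flags about 1 in 20 groups. In PSC replicate 4, Col3a1 was highest of the PSC arrays at 9.08, with the next at 8.77, and Adamts2 at 6.51, with the next at 5.93. Control replicate 4 had the lowest control value of Col4a3, 5.15 against 5.37. PSC replicate 6 had the highest Col8a2 at 5.48, PSC replicate 5 the highest Col15a1 at 4.52 and PSC replicate 2 the highest Col20a1 at 5.05. The vesicle coat gene Sec23a was lowest in control replicate 6, at 8.41 against 8.72. The reasons were not tested.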

How the results depend on the processing

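Col1a2 kept its fall under all alternatives but the one without PSC replicates 2 and 5 (adjusted p = 0.052). Col12a1 lost its fall only with the replicate block (adjusted p = 0.0568). Col3a1 lost it with repeated quantile normalization (0.0572), cyclic loess (0.0634), array weights (0.053), adjustment over all rows (0.0811), the replicate block (0.099) and without PSC replicates 2 and 5 (0.144). Col4a4 lost its rise with adjustment over all rows (0.0656), the block (0.115) and without those 2 arrays (0.0851). Of the pathway genes, Serpinh1 lost its fall with adjustment over all rows (0.0512), the block (0.0701) and without PSC replicates 2 and 5 (0.0901), and Crtap with the block (0.0575). Bmp1 lost its rise with the same 3 settings as Serpinh1 (0.0721, 0.099 and 0.0525). The causes were not tested.

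Collagens lower in PSC numbered 5 with a mean signal of at least 5 and 6 at an adjusted p below 0.1; in both, basement membrane collagens lower numbered 1, and at 0.1 other collagens lower numbered 2. They numbered 1 with the replicate block, with 0 higher and 0 of the other class, and 1 without PSC replicates 2 and 5, with 0 higher and 0 fibrillar. Collagens higher were 0 with adjustment over all rows. Fibrillar collagens lower fell to 1 with repeated quantile normalization, cyclic loess, array weights, the block and adjustment over all rows. The basement membrane median moved to -0.017 with the dim filter and 0.028 with quantile normalization. All genes lower and higher were 78 and 16 with the block, 162 and 42 over all rows, 166 and 59 without PSC replicates 2 and 5, 738 and 402 at 0.1, and lower 592 with the dim filter. The labels do not say whether the replicate numbers pair the rats. Same-numbered arrays correlated at -0.151 to 0.111 in their deviations over all genes. These values show no pairing across the genes as a whole but cannot exclude one that acts on some of them.

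Without 1 array, collagens lower ranged from 2 to 5, higher from 0 to 1, fibrillar lower from 1 to 3, other lower from 1 to 2, all genes lower from 113 to 543 and higher from 29 to 192. The lowest of the all-gene counts were without control replicate 1 and the highest without PSC replicate 4. The count of basement membrane collagens lower stayed at 0, and the class medians ranged from 0.029 to 0.103 (basement membrane), -0.02 to 0.026 (fibrillar) and 0.087 to 0.137 (other). Differences near 0 changed sign: Col5a1 was 0.056 with quantile normalization, 0.005 with median centring, 0.033 with cyclic loess, 0.001 with array weights, 0.008 without PSC replicates 2 and 5 and -0.02 to 0.026 without 1 array. Col26a1 was -0.058, -0.054, -0.004 and -0.023 with quantile normalization, cyclic loess, array weights and without those 2 arrays, and -0.024 to 0.047 without 1. Col5a3 ranged from -0.09 to 0.02. The files give no signal over background, so what dimness limits cannot be set.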
